A study of Mus musculus with 9 samples.

Results

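The genes described here are 39 interferon-stimulated genes, named in a list by symbol and matched to the Ensembl identifiers of the deposited tables through the GENCODE M21 annotation of mouse build GRCm38. They are 39 of the 49585 genes in each table. The rule names symbols and uses no measured value, but the list was chosen with earlier results of these data known. Their RNA was followed in organoids, small 3-dimensional cultures, grown from flow-sorted basal cells of the C57BL/6J mouse prostate. RNA sequencing gave 9 libraries, 3 for each of 3 media. RD7 is a basement medium to which 500 ng/ml R-spondin1, which amplifies Wnt signals, and 100 nM dihydrotestosterone (DHT), the potent androgen of the prostate, were added. R is that medium with the same dose of R-spondin1 and no DHT. BM is the basement medium alone. All groups shared its components, among them EGF, Noggin, the TGF-beta receptor inhibitor A83-01 and the ROCK inhibitor Y-27632, and all were harvested after 5 days. R against BM therefore asks what R-spondin1 changed, RD7 against R what DHT changed on top of it, and RD7 against BM what both changed together; no group here had DHT without R-spondin1. The labels give no animal, sort or culture for a library, so p-values measure the spread between these libraries, which may be technical. In bulk RNA of this kind, a change in the number of cells that express a gene and a change in its RNA per cell cannot be told apart.

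Interferons are secreted proteins that warn cells of infection. Type I and type III interferons bind their own receptors, whose kinases of the JAK family activate transcription factors; among these, STAT2 joins IRF9 in a complex that binds the interferon-stimulated response element, or ISRE, beside its target genes. The targets include sensors of foreign nucleic acid, effectors that stop viruses at entry, translation or release, and regulators that raise or end the response. Many are also transcribed at a low level in uninfected epithelium, and the factors IRF1, IRF3 and IRF7 can act on some of the same elements without interferon.

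The libraries held 6505859 to 24141017 counted reads, with library BM 1 the lowest. Known targets of both additions were read first. The Wnt target Axin2 had 4.64, 3.49 and 3.79 FPKM (a read count scaled to gene length and library depth) in RD7, 3.88, 3.36 and 5.59 in R, and 0.391, 0.346 and 0.315 in BM. The androgen-induced Fkbp5 had 128, 103 and 97.4 FPKM in RD7, 4.22, 3.59 and 5.06 in R, and 7.22, 4.91 and 5.39 in BM. Both therefore separated the groups as the labels do. The basal keratin Krt5 was at 2292 FPKM or more in every library, so the labelled cell type carried its defining marker. The luminal keratins were also abundant, with Krt8 at 609 FPKM or more and Krt18 at 551 FPKM or more. Libraries differed in how levels ran with gene length. Across the 15917 genes tested, the Spearman correlation of a gene's deviation from its own mean with its length was -0.15, -0.38 and -0.28 in RD7, -0.18, -0.06 and 0.20 in R, and 0.40, 0.41 and -0.01 in BM. Library BM 3 thus stood apart from the other two BM libraries, and calls among the 39 genes that change without it are given with and without it.

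As a group, the genes were highest in RD7 and lowest in BM. The median member lay 0.39, 0.30 and 0.39 above its own mean in the RD7 libraries on the log2 scale, at 0.03, 0.01 and -0.04 in R, and at -0.43, -0.42 and -0.21 in BM. Of the BM libraries, BM 3 was the nearest to R. All 39 members passed the filter on low values, at least 0.5 CPM (reads scaled to library depth) in at least 3 libraries, and did so in all 9 libraries. Differences were tested with limma on log2(FPKM + 0.5), and a gene is called where its adjusted p, by the Benjamini-Hochberg method over all 15917 genes, was under 0.05; fold changes on this scale understate those of low genes.

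**Figure D1:**
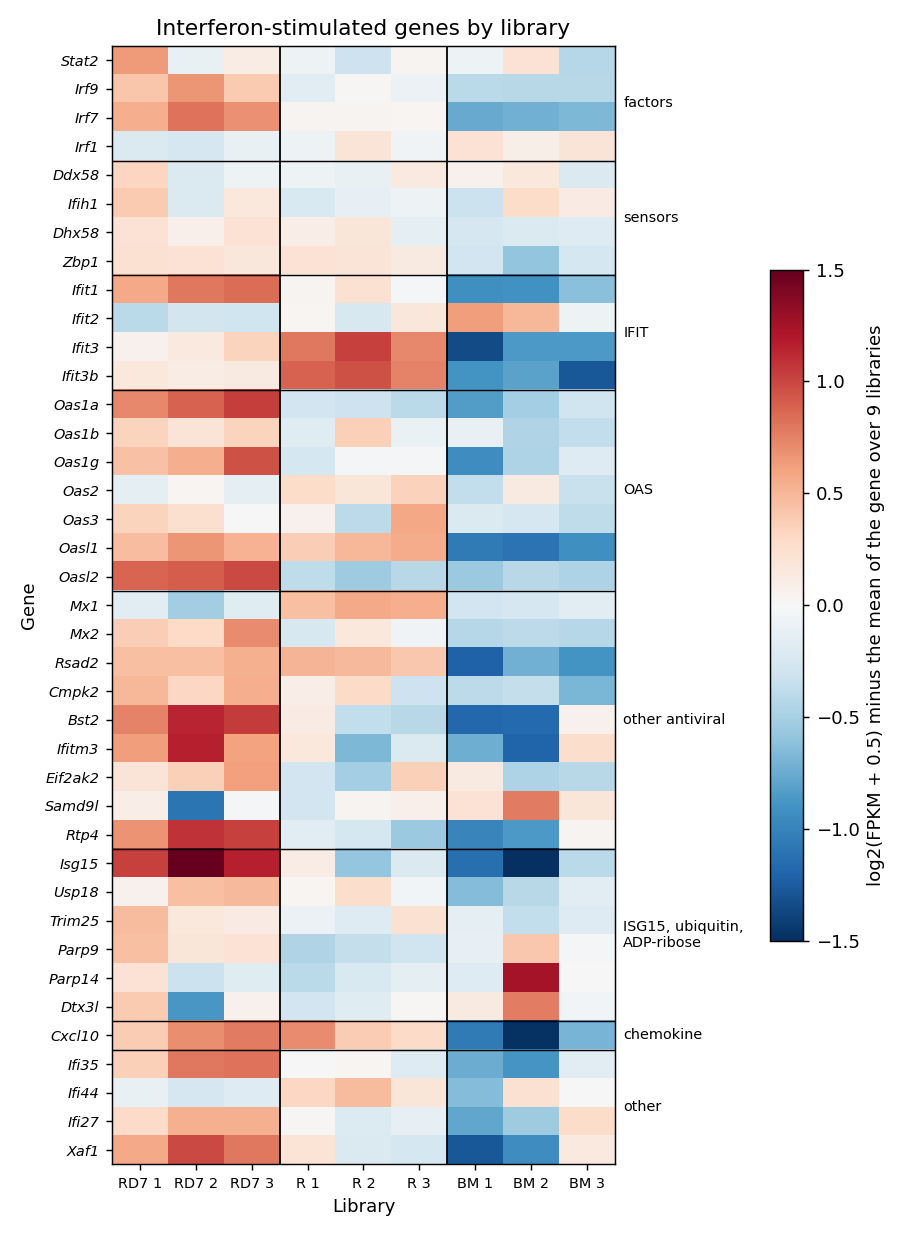
Levels of the 39 genes in each library, as log2(FPKM + 0.5) minus the gene's mean over the 9 libraries, with genes in rows by role and libraries in columns (RD7, R, BM; 3 each). Red cells lie above the gene's mean and blue cells below it; the RD7 columns have the most red, with medians of 0.39, 0.30 and 0.39, and BM 1 and BM 2 have the lowest medians, at -0.43 and -0.42.

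In R against BM, 9 members rose and 0 fell. Over all genes tested, 4.36% rose and 5.64% fell, and the members' share of rising genes was 23.1%. At an unadjusted p under 0.05, limma gave 16 members higher and 1 lower, Parp9, beside 13.7% and 12.1% of all genes. With limma-voom on reads read back from the FPKM values, 0 were called lower at an adjusted p under 0.05, beside 5.82% of all genes. Without library BM 3 the counts were 16 higher and 1 lower, and the shares over all genes also grew, to 13.1% and 8.23%. The members gained higher without it were Bst2, Rtp4, Isg15, Usp18, Ifi35, Ifi27 and Xaf1, and Ifit2 was gained lower. The median log2 fold change was 0.36 over the members and 0.02 over all genes tested.

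In RD7 against R, 13 members rose and 3 fell, against 13.3% and 17.7% of all genes tested. These are 33.3% and 7.69% of the members. Without library RD7 3, 8 members rose, with 10% of all genes rising in the same fit. The median log2 fold change was 0.26 over the members and -0.09 over all genes.

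In RD7 against BM, where both additions count, 25 members rose and 2 fell, against 21.5% and 25.3% of all genes tested. The members' shares were 64.1% and 5.13%. The limma count of falling members was 0 without BM 1 (19.6% of all genes fell in that fit), without BM 2 (17.8%) and without RD7 3 (18.4%), and at an unadjusted p under 0.05 with all libraries 3 members were lower, beside 30.1% of all genes. The median log2 fold change was 0.80 over the members and -0.07 over all genes. These 3 comparisons share libraries, so each is given with its own values.

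**Figure D2:**
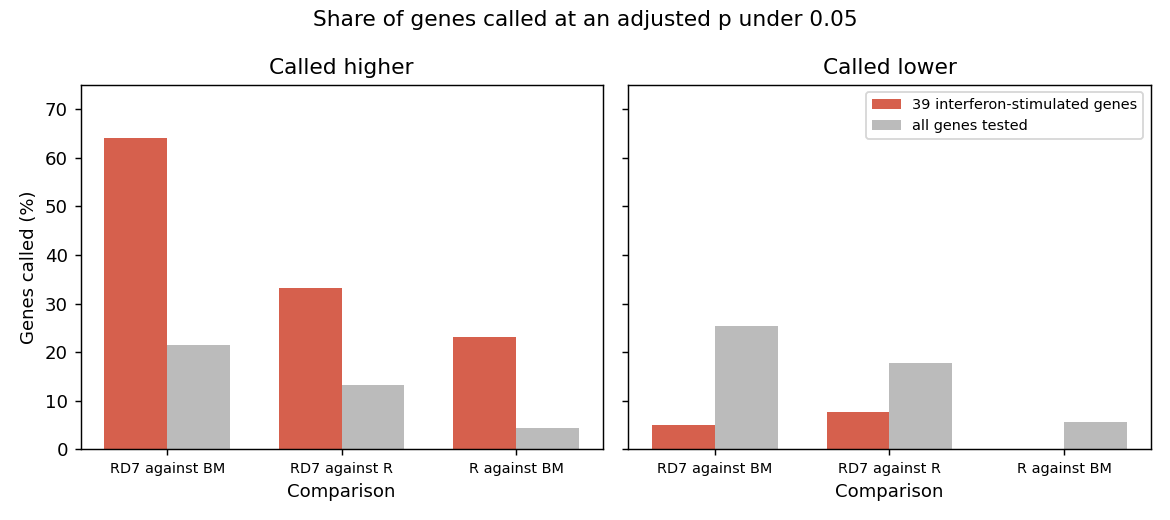
Share of genes called higher (left) and lower (right) at an adjusted p under 0.05, in percent, for the 39 interferon-stimulated genes (red bars) and all 15917 genes tested (grey bars), in 3 comparisons. The members' bars stand above the grey ones for higher calls, at 64.1% against 21.5% for RD7 against BM, and below them for lower calls, at 5.13% against 25.3%.

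Read without any test, the members also separated by library in this direction. In RD7 against BM, 27 members had all RD7 libraries above all BM libraries and 3 had all of them below, where 23% and 29.3% of all genes did so. In RD7 against R these counts were 16 above and 7 below, with 21.7% and 30.1% of all genes. In R against BM they were 15 above and 2 below, with 15.9% and 14.4% of all genes.

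The 29 members called in at least 1 comparison took several courses across the media. Irf7 and Ifit1 rose in all 3 comparisons. Zbp1, Oasl1, Rsad2 and Cxcl10 rose with R-spondin1 and with both additions, and were not called in RD7 against R. Another 10 members (Irf9, Oas1a, Oas1g, Oasl2, Mx2, Bst2, Ifitm3, Rtp4, Isg15 and Ifi35) rose in RD7 against R and in RD7 against BM, and were not called in R against BM. Ifit3, Ifit3b and Mx1 rose in R against BM and fell in RD7 against R. Parp9 rose in RD7 against R alone. Dhx58, Oas1b, Cmpk2, Usp18, Trim25, Ifi27 and Xaf1 rose in RD7 against BM alone, and Irf1 and Ifit2 fell there alone. The other 10 members of the 39 (Stat2, Ddx58, Ifih1, Oas2, Oas3, Eif2ak2, Samd9l, Parp14, Dtx3l and Ifi44) were called in none. A missing call does not show that a gene was level.

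**Figure D3:**
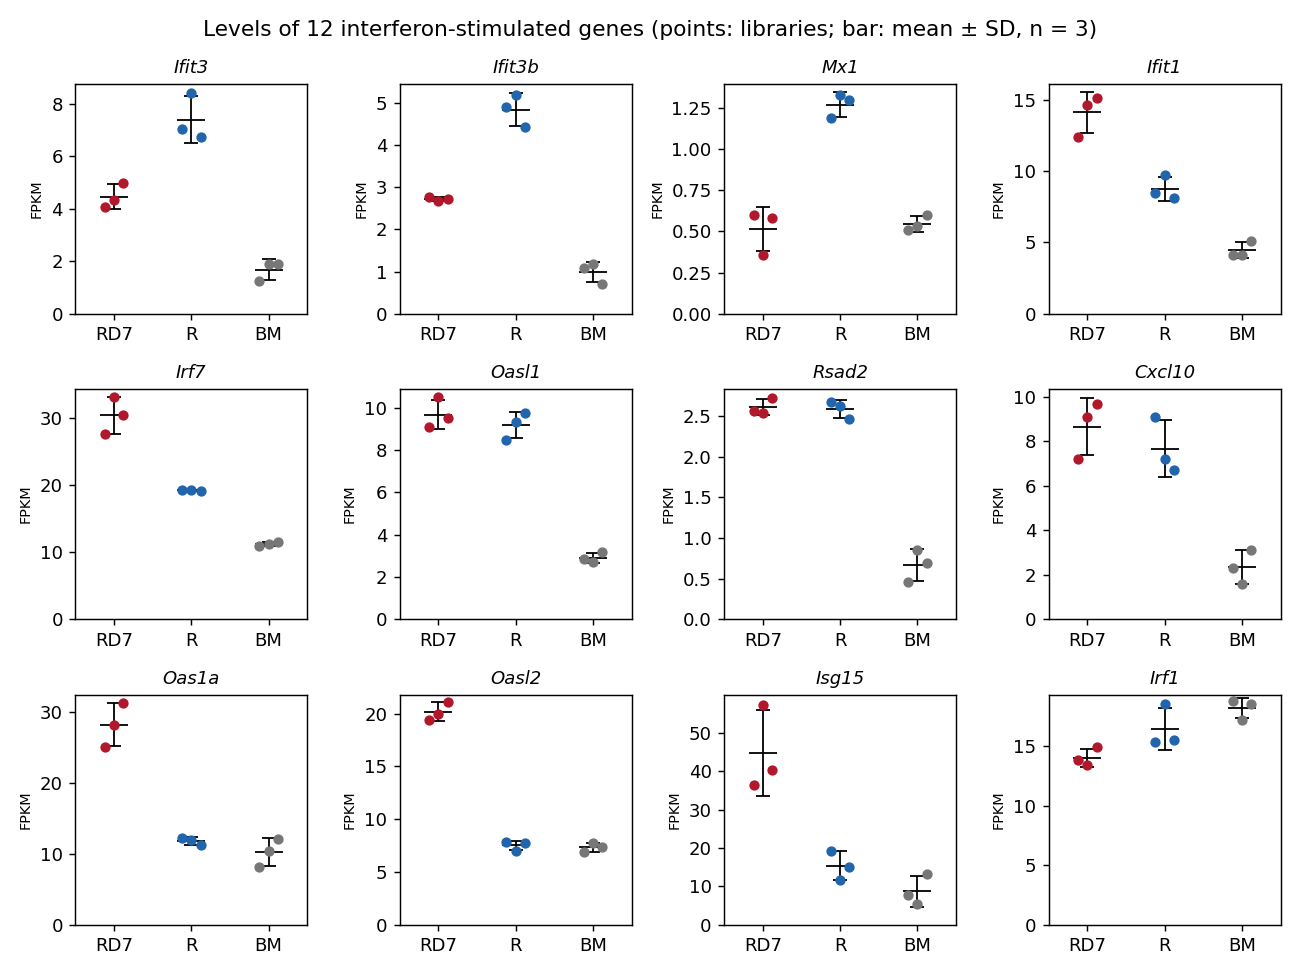
FPKM of 12 members in each library, with RD7, R and BM from left to right, points for the 3 libraries of a group, and a bar for the mean ± SD (n = 3). Ifit3, Ifit3b and Mx1 are highest in R, Irf7 and Ifit1 step down from RD7 to R to BM, Oasl1, Rsad2 and Cxcl10 overlap between RD7 and R and are lower in BM, Oas1a, Oasl2 and Isg15 are highest in RD7, and Irf1 is lowest in RD7, at 13.4 to 14.9 FPKM.

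The promoters of these genes can be read beside their levels. RefSeq (build GRCm38.p6) gave a window of 300 bases, 250 before and 50 after the start, for 28 members and none for 11 (Dhx58, Zbp1, Oas1b, Oas2, Mx1, Mx2, Rtp4, Usp18, Parp9, Parp14 and Ifi27). A core of the ISRE, the letters GAAA, any 2 bases and GAAA again, on either strand, stood in the window of 15 of the 28 members (53.57%) and of 3.99% of the 27025 genes with a window. The GAS element TTCNNNGAA, known from genes that interferon gamma induces and read the same on both strands, stood in 7 of the 28 (25.0%) and in 9.55% of all genes. The 24 ISRE core matches began at positions -222 to 33 from the start, and 19 of them began upstream. In 4 members, Bst2, Isg15, Oas1a and Oas1g, ISRE core matches overlapped each other, and 2 matches, in Bst2 and Ifitm3, overlapped a GAS match. A match describes letters in the window and does not show that a factor binds there. A missing match does not show the absence of an element, since only exact letters were read and only within the window.

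**Figure D4:**
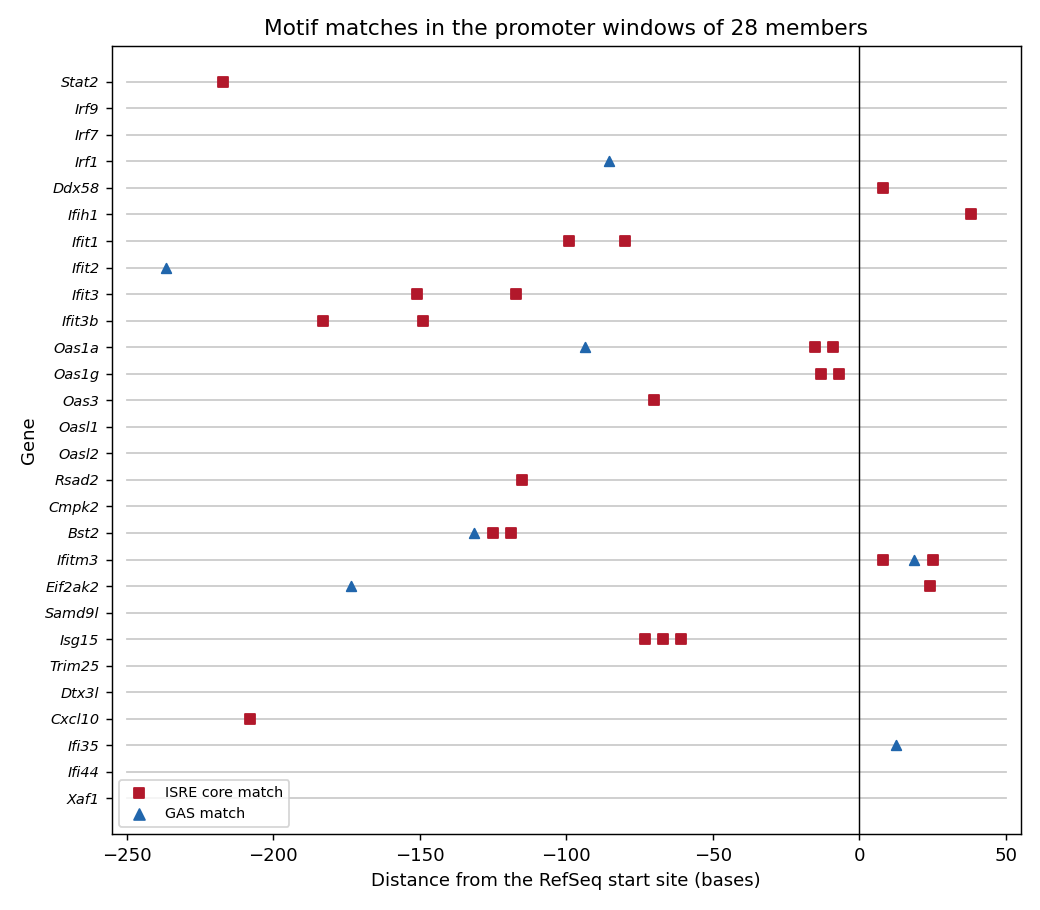
Matches of the ISRE core (red squares) and the GAS element (blue triangles) in the promoter windows of 28 members, by distance in bases of the match centre from the RefSeq start site (0, black line), with 1 grey line per gene. Of the 24 ISRE core matches, 19 begin upstream of the start; Irf7, Oasl1 and Oasl2 have no match of either motif.

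Among the transcription factors, Irf7 and Irf9 rose and Irf1 fell with both additions. Irf7, which drives interferon genes and amplifies the response, had 27.6, 33.2 and 30.4 FPKM in RD7, 19.2, 19.3 and 19.1 in R, and 10.9, 11.2 and 11.5 in BM. The libraries formed 3 separate steps with little spread. As log2 fold changes (± SE), these steps were 0.75 ± 0.12 in R against BM (adjusted p = 0.0022), 0.65 ± 0.12 in RD7 against R (adjusted p = 0.0023) and 1.40 ± 0.12 in RD7 against BM (adjusted p = 1.2e-05). Irf9, which gives the complex with STAT2 its DNA binding, had 24.7, 29.5 and 24.3 FPKM in RD7, 16.5, 18.6 and 17.3 in R, and 13.8, 13.7 and 13.7 in BM. It rose by a log2 fold change of 0.57 ± 0.12 in RD7 against R (adjusted p = 0.0068) and of 0.90 ± 0.12 in RD7 against BM (adjusted p = 3.8e-04). In R against BM its groups did not overlap, but the difference of 0.33 ± 0.12 was not called (adjusted p = 0.126).

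Irf1, a factor that interferon gamma induces strongly, had 13.8, 13.4 and 14.9 FPKM in RD7, 15.3, 18.5 and 15.5 in R, and 18.8, 17.2 and 18.5 in BM. All RD7 libraries were below all others. Its log2 fold change in RD7 against BM was -0.36 ± 0.12 (adjusted p = 0.036), and this call ended in 12 of the 18 alternatives, with an adjusted p between 0.0524 and 0.118. These include leaving out BM 1 (0.083), BM 2 (0.0538), BM 3 (0.058), R 1 (0.058), R 3 (0.0525), RD7 1 (0.066), RD7 2 (0.107) or RD7 3 (0.0524). Stat2, the lowest of the 4 factors, had 15.4, 8.98 and 10.5 FPKM in RD7, 9.18, 7.73 and 10.0 in R, and 9.19, 11.4 and 7.10 in BM. Its groups overlapped in every comparison, and it was not called. The window of Irf7 holds neither motif; the 100 bases before its start (chr7:141266425-141266524, minus strand) are shown because this factor moved in all comparisons.
Irf7: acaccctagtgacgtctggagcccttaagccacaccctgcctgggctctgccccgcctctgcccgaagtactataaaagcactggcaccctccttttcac

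**Figure D5:**
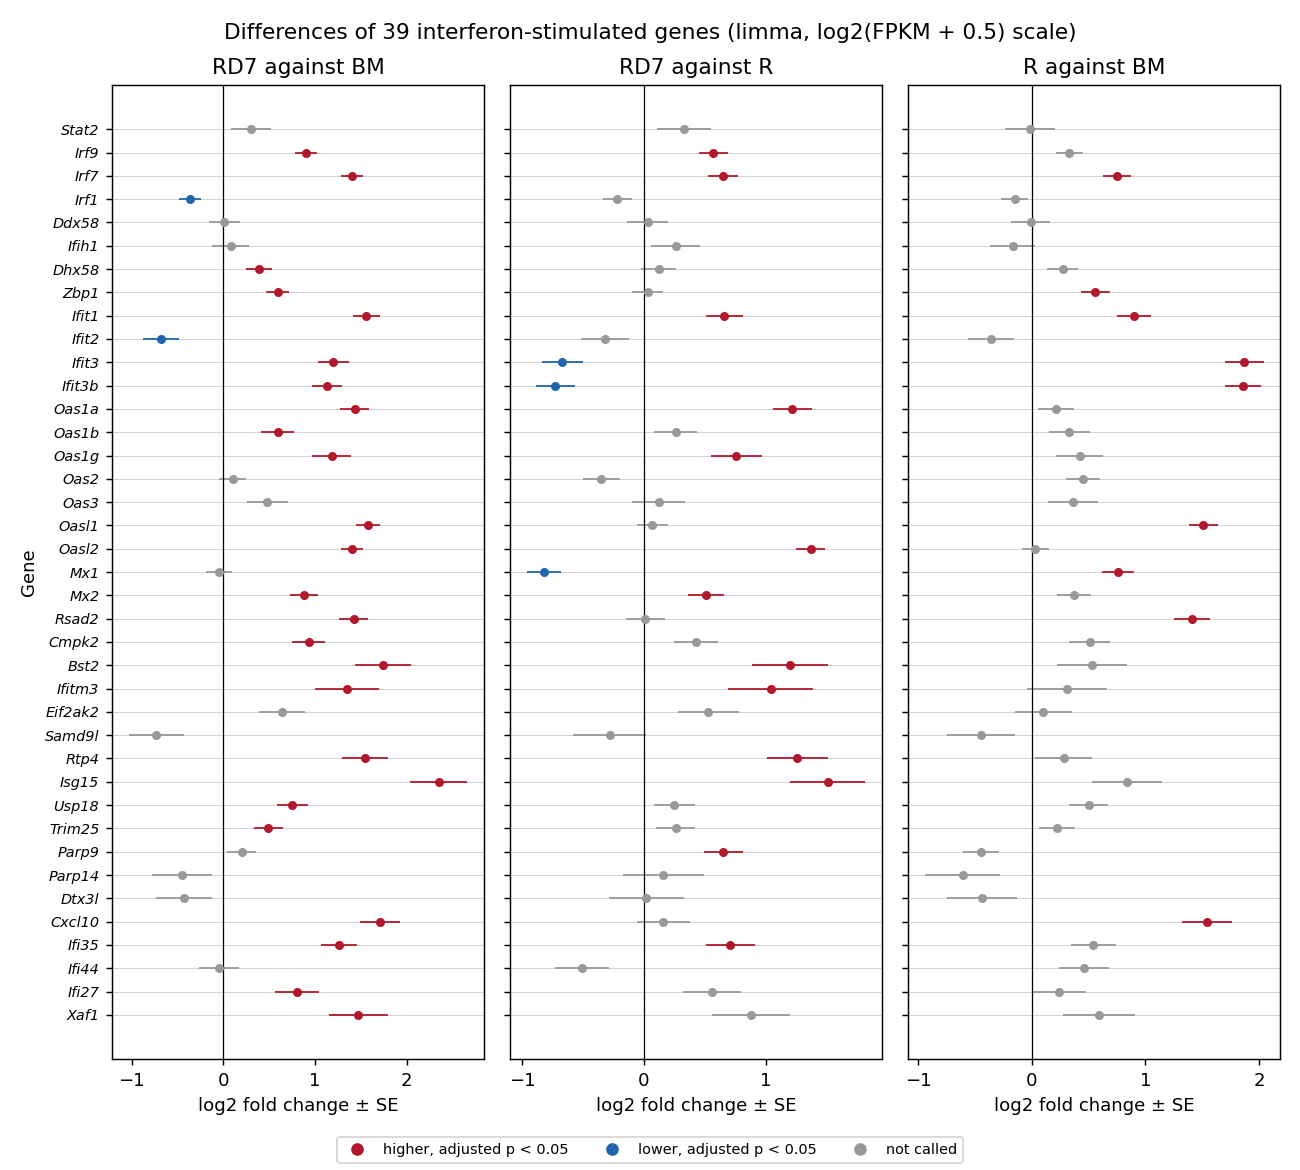
Log2 fold change ± SE of the 39 members in RD7 against BM, RD7 against R and R against BM, from limma on log2(FPKM + 0.5), with genes in rows. Red points were called higher (25, 13 and 9 members), blue points lower (2, 3 and 0) and grey points were not called; Isg15 has the largest estimate of the 39 in RD7 against BM, at 2.35 ± 0.31.

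Of the sensors of foreign nucleic acid, Zbp1 and Dhx58 rose and the 2 main receptors of viral RNA were not called. Zbp1, which binds nucleic acid in the Z form and can trigger necroptosis, had 0.776, 0.771 and 0.721 FPKM in RD7, 0.763, 0.743 and 0.693 in R, and 0.392, 0.223 and 0.405 in BM. RD7 and R lay close together, with BM below both. The log2 fold change was 0.56 ± 0.13 in R against BM (adjusted p = 0.017) and 0.59 ± 0.13 in RD7 against BM (adjusted p = 0.0049). The call in R against BM was lost without BM 2 (adjusted p = 0.063), R 1 (0.077) or R 2 (0.065). Dhx58, which encodes LGP2, a helper of the RNA sensors, had 5.36, 4.80 and 5.32 FPKM in RD7, 4.88, 5.22 and 4.08 in R, and 3.71, 3.84 and 3.90 in BM. All libraries of both treated groups were above BM. It rose in RD7 against BM by 0.39 ± 0.14 (log2, adjusted p = 0.042), a call that ended in 11 of the 18 alternatives; without single libraries the adjusted p was 0.093 (BM 1), 0.081 (BM 2), 0.059 (BM 3), 0.07 (R 1), 0.058 (R 2), 0.089 (RD7 1), 0.061 (RD7 2) and 0.102 (RD7 3).

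Ddx58, which encodes the RNA sensor RIG-I and was the most abundant of the 4 sensors, had 18.9, 12.8 and 14.2 FPKM in RD7, 14.2, 13.8 and 16.6 in R, and 15.7, 16.7 and 12.8 in BM. The libraries of the groups were mixed, and its log2 fold changes lay between -0.01 and 0.03, each with an SE of 0.17. It was called in RD7 against BM only after the trend with gene length was removed (adjusted p = 0.042). Ifih1, which encodes the sensor MDA5, stayed between 1.75 and 3.19 FPKM with overlapping groups and was not called.

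The IFIT genes encode proteins that bind viral RNA and hold back its translation, and they divided in 3 ways. They lie side by side on chromosome 19. Ifit3 (chr19:34583531-34588731) had 4.07, 4.32 and 4.99 FPKM in RD7, 7.04, 8.40 and 6.72 in R, and 1.23, 1.9 and 1.9 in BM. Ifit3b (chr19:34607970-34613401), a close copy, had 2.77, 2.67 and 2.72 FPKM in RD7, 4.92, 5.20 and 4.43 in R, and 1.08, 1.18 and 0.714 in BM. In both, RD7 lay between R and BM with no overlap. Ifit3 rose in R against BM by 1.87 ± 0.17 (adjusted p = 6.9e-05) and fell in RD7 against R by 0.67 on the log2 scale (SE 0.17, adjusted p = 0.016). That fall was not called without R 2 (adjusted p = 0.073) or RD7 2 (0.0501). Ifit3b rose by 1.86 ± 0.16 in R against BM (adjusted p = 4.0e-05) and fell by 0.73 in RD7 against R (SE 0.16, adjusted p = 0.0069), and both calls held in every alternative run. In RD7 against BM both rose, Ifit3 by 1.20 ± 0.17 (adjusted p = 5.6e-04) and Ifit3b by 1.13 ± 0.16 (adjusted p = 4.7e-04). The values of the pair are not independent where reads could come from either: 51.24% of the 50-base stretches of Ifit3 transcripts also occur in those of Ifit3b, and 44.54% of those of Ifit3b occur in Ifit3.

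Ifit1 (chr19:34640871-34650009), whose protein binds viral RNA caps that lack a host methyl mark, followed another course. It had 12.4, 14.6 and 15.1 FPKM in RD7, 8.44, 9.70 and 8.08 in R, and 4.11, 4.13 and 5.11 in BM. The groups formed 3 steps, as for Irf7. It differed on the log2 scale by 0.90 ± 0.15 in R against BM (adjusted p = 0.0029), 0.66 ± 0.15 in RD7 against R (adjusted p = 0.0078) and 1.56 ± 0.15 in RD7 against BM (adjusted p = 2.9e-05). Ifit2 (chr19:34550694-34576419), the lowest of the family in RD7, ran the other way, with 1.21, 1.37 and 1.34 FPKM in RD7, 1.82, 1.42 and 2.05 in R, and 3.01, 2.70 and 1.65 in BM. All RD7 libraries were below all others, and R and BM overlapped through BM 3. It fell in RD7 against BM by 0.68 on the log2 scale (SE 0.20, adjusted p = 0.021), and this was not called without BM 1 (adjusted p = 0.074), BM 2 (0.067), RD7 1 (0.0501) or RD7 3 (0.0517). Without BM 3 it was also called lower in R against BM (adjusted p = 0.0453).

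The windows of the 3 IFIT genes that rose in R against BM each hold 2 ISRE cores, here in capitals in 80 bases upstream of the start on the gene's strand. These stretches are at chr19:34583353-34583432 (Ifit3), chr19:34607749-34607828 (Ifit3b) and chr19:34640765-34640844 (Ifit1), all on the plus strand. The stretches of Ifit3 and Ifit3b are the same letter for letter, and Ifit1 has the same 2 cores closer together. The window of Ifit2 has no ISRE core and a GAS match that begins at position -241.
Ifit3: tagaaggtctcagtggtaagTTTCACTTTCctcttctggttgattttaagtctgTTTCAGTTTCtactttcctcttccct
Ifit3b: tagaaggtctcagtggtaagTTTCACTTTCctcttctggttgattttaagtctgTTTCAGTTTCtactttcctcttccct
Ifit1: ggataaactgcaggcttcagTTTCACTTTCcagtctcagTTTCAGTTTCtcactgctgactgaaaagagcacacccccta

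The OAS genes make oligoadenylates that switch on RNase L, or encode relatives of these enzymes. All 7 lie on chromosome 5. Of these, 1 rose in R against BM (4.36% of all genes rose), 3 in RD7 against R (13.3%) and 5 in RD7 against BM (21.5%). None was called lower, where 5.64%, 17.7% and 25.3% of all genes fell. Oas1a (chr5:120896256-120907521), the highest of the family, had 25.1, 28.2 and 31.2 FPKM in RD7, 12.2, 12 and 11.2 in R, and 8.15, 10.4 and 12.1 in BM. RD7 stood well above R and BM, which overlapped. Its log2 fold change was 1.22 ± 0.16 in RD7 against R (adjusted p = 2.7e-04) and 1.43 ± 0.16 in RD7 against BM (adjusted p = 8.9e-05). Oas1g (chr5:120876142-120887613) had 4.54, 4.92 and 6.73 FPKM in RD7, 2.6, 3.14 and 3.14 in R, and 1.45, 2.21 and 2.75 in BM, with the same order of the groups. It rose by 0.76 ± 0.21 in RD7 against R (adjusted p = 0.024) and by 1.18 ± 0.21 in RD7 against BM (adjusted p = 0.0022). The first of these calls was lost with no filter on low values (adjusted p = 0.0508) and without R 1 (0.082), R 2 (0.057), R 3 (0.056) or RD7 3 (0.09). Oas1a and Oas1g share sequence, so their values are not separate measurements: 57.57% of the 50-base stretches of Oas1a transcripts occur in Oas1g, and 45.25% of those of Oas1g occur in Oas1a.

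Oasl1 and Oasl2 neighbour each other, and both rose in RD7 against BM. Oasl1 was also called in R against BM, and Oasl2 in RD7 against R. The difference between the genes was not tested. Oasl1 (chr5:114923240-114937915), which in mouse limits the translation of Irf7, had 9.11, 10.5 and 9.51 FPKM in RD7, 8.50, 9.32 and 9.74 in R, and 2.83, 2.72 and 3.17 in BM. RD7 and R overlapped, both far above BM. The fitted log2 fold change was 1.51 ± 0.13 in R against BM (adjusted p = 4.8e-05), 0.07 ± 0.13 in RD7 against R (adjusted p = 0.706) and 1.58 ± 0.13 in RD7 against BM (adjusted p = 1.3e-05). Oasl2 (chr5:114896936-114912234) had 19.4, 20 and 21.1 FPKM in RD7, 7.84, 7.00 and 7.70 in R, and 6.90, 7.70 and 7.40 in BM. Here R and BM overlapped, and RD7 stood apart. In log2 terms the difference was 0.03 ± 0.12 in R against BM (adjusted p = 0.886), 1.37 ± 0.12 in RD7 against R (adjusted p = 1.7e-05) and 1.40 ± 0.12 in RD7 against BM (adjusted p = 1.5e-05).

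Oas1b, of which C57BL/6 mice carry a truncated form, had 1.96, 1.73 and 1.96 FPKM in RD7, 1.23, 2.01 and 1.32 in R, and 1.31, 0.936 and 1.02 in BM. RD7 was above BM in every library, and R overlapped both. It rose in RD7 against BM by 0.59 ± 0.18 (adjusted p = 0.021), which was not called after removal of the length trend (adjusted p = 0.170), without BM 2 (0.07) or without RD7 3 (0.061). Oas2, the lowest of the family, had 0.490, 0.612 and 0.492 FPKM in RD7, 0.816, 0.734 and 0.882 in R, and 0.345, 0.698 and 0.367 in BM. R was above both other groups in every library, but no comparison was called; without BM 2 it was called higher in R against BM (adjusted p = 0.021) and lower in RD7 against R (0.049). Oas3 ranged from 0.517 to 1.5 FPKM and was not called, except higher in RD7 against BM after removal of the length trend (adjusted p = 0.0074) or without R 3 (0.043).

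The promoters of Oas1a (chr5:120907526-120907605) and Oas1g (chr5:120887614-120887693), on the minus strand, each end in 2 overlapping ISRE cores just before the start, in capitals below. Those of Oasl1 (chr5:114923140-114923239) and Oasl2 (chr5:114896834-114896933), on the plus strand, have no match of either motif in the window; their last 100 bases before the start are shown beside them.
Oas1a: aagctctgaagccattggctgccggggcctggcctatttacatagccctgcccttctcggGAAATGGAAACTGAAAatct
Oas1g: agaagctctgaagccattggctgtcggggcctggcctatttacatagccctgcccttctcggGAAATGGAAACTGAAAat
Oasl1: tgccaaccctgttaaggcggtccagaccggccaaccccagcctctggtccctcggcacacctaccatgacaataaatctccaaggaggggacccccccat
Oasl2: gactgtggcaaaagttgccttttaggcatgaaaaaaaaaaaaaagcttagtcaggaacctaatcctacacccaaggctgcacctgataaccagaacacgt

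The other antiviral effectors, 9 genes, held both the highest and some of the lowest levels of all members. Of these, 2 rose in R against BM (4.36% of all genes rose), 4 rose and 1 fell in RD7 against R (13.3% and 17.7% of all genes), and 6 rose in RD7 against BM (21.5%). Rsad2, which encodes viperin, an enzyme that makes a chain-terminating nucleotide, had 2.56, 2.54 and 2.72 FPKM in RD7, 2.68, 2.62 and 2.46 in R, and 0.462, 0.852 and 0.695 in BM. RD7 and R overlapped, with a log2 difference of 0.01 ± 0.16 in RD7 against R (adjusted p = 0.974), and both stood above BM. The log2 fold change was 1.41 ± 0.16 in R against BM (adjusted p = 2.4e-04) and 1.42 ± 0.16 in RD7 against BM (adjusted p = 8.6e-05). Cmpk2, its neighbour on chromosome 12 and a nucleotide kinase of mitochondria, had 4.70, 4.08 and 4.89 FPKM in RD7, 3.45, 4.01 and 2.47 in R, and 2.31, 2.37 and 1.79 in BM. The groups did not overlap, but only RD7 against BM was called, at 0.93 ± 0.18 (adjusted p = 0.0033).

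Mx1 and Mx2 encode GTPases that trap incoming viruses, and moved in opposite directions with DHT. C57BL/6 mice carry a defective Mx1 allele. Mx1 had 0.598, 0.359 and 0.584 FPKM in RD7, 1.19, 1.33 and 1.30 in R, and 0.506, 0.534 and 0.602 in BM. Every R library was above every library of RD7 and BM, which overlapped. It rose by 0.76 ± 0.14 in R against BM (adjusted p = 0.0053), fell by 0.82 on the log2 scale in RD7 against R (SE 0.14, adjusted p = 0.0015), and differed by -0.05 ± 0.14 in RD7 against BM (adjusted p = 0.758). Mx2, the lowest of these 9 genes in its mean over all 9 libraries but above Mx1 in RD7, had 0.742, 0.681 and 1.06 FPKM in RD7, 0.312, 0.571 and 0.422 in R, and 0.213, 0.229 and 0.212 in BM. The groups formed 3 steps. Mx2 rose by 0.51 ± 0.15 in RD7 against R (adjusted p = 0.025) and by 0.88 ± 0.15 in RD7 against BM (adjusted p = 0.0013). The call in RD7 against R was lost with no filter on low values (adjusted p = 0.066) and without R 1 (0.097), R 3 (0.073) or RD7 3 (0.082).

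Ifitm3, Bst2 and Rtp4 rose with DHT and shared a raised value in library BM 3. Ifitm3, which blocks the fusion of viruses with the cell, was the most abundant of the 39 genes. It had 1300, 1887 and 1286 FPKM in RD7, 942, 528 and 724 in R, and 509, 367 and 1011 in BM. RD7 was above every other library, and BM 3 was the highest outside RD7. It differed on the log2 scale by 1.04 ± 0.35 in RD7 against R (adjusted p = 0.044) and 1.35 ± 0.35 in RD7 against BM (adjusted p = 0.011). The call in RD7 against R was lost with no filter (adjusted p = 0.1), with a filter at 1 FPKM (0.0505), with the replicate block (0.066) and without BM 1 (0.058), R 2 (0.152), R 3 (0.1), RD7 1 (0.062), RD7 2 (0.149) or RD7 3 (0.079).

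Bst2, which encodes tetherin and holds budding viruses on the cell, had 33.0, 43.5 and 40.7 FPKM in RD7, 21.2, 14.9 and 14.4 in R, and 8.34, 8.35 and 20.4 in BM. Only BM 3 overlapped R. Bst2 rose by 1.20 ± 0.31 in RD7 against R (adjusted p = 0.016) and by 1.74 ± 0.31 in RD7 against BM (adjusted p = 0.002). The call in RD7 against R was lost without R 2 (adjusted p = 0.058), R 3 (0.058), RD7 2 (0.058) or RD7 3 (0.0542), and one in R against BM was gained without BM 3 (0.0078). Rtp4, a chaperone of membrane receptors, had 34.6, 46.2 and 44.4 FPKM in RD7, 19.2, 17.8 and 14.5 in R, and 10.6, 11.6 and 22.1 in BM. Again BM 3 was above R and the other BM libraries below it. Rtp4 rose by 1.26 ± 0.25 in RD7 against R (adjusted p = 0.0046) and by 1.54 ± 0.25 in RD7 against BM (adjusted p = 0.0013); without BM 3 it was also called higher in R against BM (0.033). Of its exon bases, 13.89% are shared with Gm45338 on the same strand.

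Eif2ak2, which encodes the translation-blocking kinase PKR, stayed between 4.37 and 10.1 FPKM. In RD7 against BM its estimate of 0.64 ± 0.25 was not called (adjusted p = 0.057), but was with median-of-ratios scaling (0.036), TMM scaling (0.033), limma-voom (0.035), the length trend removed (0.013) and without BM 1 (0.035) or R 3 (0.032). It was also called higher in RD7 against R with the length trend removed (adjusted p = 0.043) and without R 3 (0.039). Samd9l, a restriction factor, ranged from 1.56 to 7.04 FPKM. All its RD7 and R libraries were below those of BM, with no call, except lower in RD7 against BM without RD7 1 (adjusted p = 0.037).

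The upstream sequences of Rsad2 (chr12:26456513-26456592) and Bst2 (chr8:71537543-71537622), both on the minus strand, are shown since Rsad2 was called in R against BM and Bst2 in RD7 against R. Rsad2 has 1 ISRE core and Bst2 has 2 that overlap, in capitals; a GAS match of Bst2 runs into the first of them.
Rsad2: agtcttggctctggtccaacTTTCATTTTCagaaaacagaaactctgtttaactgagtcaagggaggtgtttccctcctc
Bst2: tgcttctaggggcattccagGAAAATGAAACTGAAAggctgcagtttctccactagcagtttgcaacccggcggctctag

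Of the 6 genes of ISG15, ubiquitin and ADP-ribose, 2 rose in RD7 against R (13.3% of all genes rose) and 3 in RD7 against BM (21.5%). In R against BM limma called 0 of them, where 4.36% of all genes rose and 5.64% fell. With 6 genes, a count of 0 is near these shares. In the same fit 3 had an unadjusted p under 0.05 (Isg15 and Usp18 higher, Parp9 lower), beside 13.7% higher and 12.1% lower of all genes. Isg15, a ubiquitin-like protein that is joined to other proteins in infected cells, had 36.3, 57.3 and 40.2 FPKM in RD7, 19.1, 11.6 and 15.1 in R, and 7.73, 5.26 and 13.2 in BM. RD7 was far above the rest, and BM 3 alone overlapped R. Isg15 rose on the log2 scale by 1.51 ± 0.31 in RD7 against R (adjusted p = 0.0047) and 2.35 ± 0.31 in RD7 against BM (adjusted p = 2.9e-04). In R against BM the estimate of 0.84 ± 0.31 was not called (adjusted p = 0.124), but was without BM 3 (0.011). Usp18, which removes ISG15 from proteins and dampens the interferon receptor, had the highest mean of the 6 over all 9 libraries, though not in RD7, where Isg15 was higher. It had 29.4, 38.5 and 39.3 FPKM in RD7, 28.6, 33.6 and 27.2 in R, and 17.6, 20.8 and 24.8 in BM. BM lay below both other groups, which overlapped. Usp18 rose by 0.75 ± 0.17 in RD7 against BM (adjusted p = 0.0063), and in R against BM was called only without BM 3 (adjusted p = 0.027).

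Trim25, a ubiquitin ligase that acts on RIG-I, had 21.8, 17.3 and 16.9 FPKM in RD7, 14.6, 13.5 and 18.3 in R, and 13.9, 11.9 and 13.5 in BM. RD7 was above BM and overlapped R. It rose by 0.49 ± 0.16 in RD7 against BM (adjusted p = 0.028), which was lost with no filter on low values (adjusted p = 0.0518) and without BM 2 (0.089), RD7 1 (0.084) or RD7 2 (0.0517); in RD7 against R it was called once the length trend was removed (0.037). Parp9, which works in a complex with the ubiquitin ligase Dtx3l, had 18.5, 15.3 and 15.6 FPKM in RD7, 9.67, 10.3 and 10.8 in R, and 12.2, 17.9 and 13.2 in BM. R was the lowest group in every library. Parp9 rose by 0.65 ± 0.16 in RD7 against R (adjusted p = 0.012), and its difference of -0.45 ± 0.16 in R against BM was not called (adjusted p = 0.110). With the length trend removed it was called higher in RD7 against BM as well (adjusted p = 0.04). Parp9 and Dtx3l share 458 exon bases on opposite strands (9.4% of Parp9 exon bases and 8.0% of those of Dtx3l), and the library kit does not mark strand, so reads there cannot be told apart.

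Dtx3l ranged from 5.34 to 17.8 FPKM with overlapping groups and was not called. Parp14, an ADP-ribosyl transferase and the lowest of the 6, had 2.16, 1.32 and 1.51 FPKM in RD7, 1.22, 1.44 and 1.58 in R, and 1.5, 4.90 and 1.78 in BM. Its groups overlapped, BM 2 alone was high, and it was not called. The 80 bases of the Isg15 promoter at chr4:156200837-156200916 (minus strand) are shown because they hold 3 overlapping ISRE cores in 1 run of capitals, the most of any member.
Isg15: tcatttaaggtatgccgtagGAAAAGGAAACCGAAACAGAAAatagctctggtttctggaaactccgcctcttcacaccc

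Cxcl10, the chemokine of the list, which draws T cells, rose with R-spondin1. It had 7.20, 9.07 and 9.65 FPKM in RD7, 9.10, 7.18 and 6.70 in R, and 2.32, 1.60 and 3.13 in BM. RD7 and R overlapped, and both were above BM in every library. In log2 terms the difference was 1.54 ± 0.22 in R against BM (adjusted p = 0.0012), 0.16 ± 0.22 in RD7 against R (adjusted p = 0.595) and 1.71 ± 0.22 in RD7 against BM (adjusted p = 2.3e-04). Of its exon bases, 5.91% are shared with Art3 on the other strand. Its promoter stretch, chr5:92349043-92349122 on the minus strand, has 1 ISRE core, farther from the start than those printed above.
Cxcl10: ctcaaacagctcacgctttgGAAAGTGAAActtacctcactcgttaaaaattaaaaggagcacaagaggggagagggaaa

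The last 4 members are induced proteins of mixed roles. Ifi35, which binds the interferon-induced protein Nmi and was the most abundant of the 4, had 46.3, 62.7 and 63.3 FPKM in RD7, 35.9, 36.6 and 31.3 in R, and 21.2, 19.2 and 31.9 in BM. RD7 was above all other libraries, and BM 3 overlapped R. It rose by 0.71 ± 0.20 in RD7 against R (adjusted p = 0.023) and by 1.26 ± 0.20 in RD7 against BM (adjusted p = 0.001). The first call was lost with no filter (adjusted p = 0.0504) and without R 1 (0.0514), R 2 (0.0539), R 3 (0.082), RD7 2 (0.081) or RD7 3 (0.08), while R against BM was called without BM 3 (0.011). Of its exon bases, 16.79% are shared with Gm11626 on the other strand.

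Ifi27, a protein of mitochondria, had 13.4, 16.1 and 16.1 FPKM in RD7, 11.1, 9.38 and 9.98 in R, and 6.18, 7.37 and 13.3 in BM. BM 3 was above all R libraries and the other BM libraries below them. It rose by 0.80 ± 0.24 in RD7 against BM (adjusted p = 0.021), which was lost with the length trend removed (adjusted p = 0.058) and without BM 1 (0.074), BM 2 (0.07), RD7 2 (0.067) or RD7 3 (0.065). Without BM 3 it was called higher in R against BM (adjusted p = 0.032) and in RD7 against R (0.011). Xaf1, an antagonist of an inhibitor of apoptosis and the lowest of the 4 in its mean over all 9 libraries, though above Ifi44 in RD7, had 4.10, 5.67 and 4.85 FPKM in RD7, 3.07, 2.16 and 2.08 in R, and 0.787, 1.12 and 2.93 in BM. It showed the same pattern, with RD7 highest and BM 3 among the R libraries. Xaf1 rose by 1.47 ± 0.32 in RD7 against BM (adjusted p = 0.0054). In RD7 against R its estimate of 0.88 ± 0.32 was not called (adjusted p = 0.061), but was in 7 alternatives, among them median-of-ratios scaling (0.041), TMM scaling (0.044), without BM 1 (0.041) and without BM 3 (0.0055); in R against BM it was called without BM 3 (0.01). Ifi44 ranged from 1.83 to 4.58 FPKM; in RD7 all libraries were below R, and this was called only without BM 1 (adjusted p = 0.03).

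Length ran with the size of these differences. Over the 39 members, the Spearman correlation of log2 fold change with gene length was -0.52 in R against BM, -0.32 in RD7 against R and -0.62 in RD7 against BM. Over all 15917 genes it was -0.33, -0.22 and -0.38 in the same comparisons, so shorter genes tended to be higher in the group named first. The points share libraries and depth, and no test was made. With the length trend of each library removed, 9 members were called higher and 0 lower in R against BM, where 4.68% and 6.04% of all genes were. In RD7 against R the counts were 16 and 3, beside 15.4% and 16.6% of all genes, and in RD7 against BM 27 and 1, beside 22.1% and 21.2%.

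The ligands of the pathway were almost absent. Of 21 interferon genes listed, 17 were listed at 0 in all 9 libraries, and all of them other than Ifne together had 6 reads of 165019659. Ifne, an epithelial type I interferon known from the reproductive tract, had 17, 20 and 22 reads in RD7, 0, 11 and 0 in R, and 4, 7 and 12 in BM. Ifne reached 0.5 CPM in 3 RD7, 0 R and 2 BM libraries, so it passed the filter only with RD7, where it was highest. A call of RD7 above another group is thus conditioned on RD7 and is no independent support. In limma, Ifne rose by 1.68 ± 0.32 on the log2 scale in RD7 against R (adjusted p = 0.0035). It was not called in RD7 against BM (adjusted p = 0.066) or in R against BM (0.124). Both outcomes changed without R 2, the only R library with reads: Ifne was then called higher in RD7 against BM (adjusted p = 0.012) and lower in R against BM (0.0065). Ifne was also called in RD7 against BM with a pseudocount of 1 (adjusted p = 0.038), median-of-ratios scaling (0.0469) and TMM scaling (0.0459). These are few reads, and protein was not measured.

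Of 6 receptor genes, 0 were called higher in R against BM, RD7 against R or RD7 against BM, where 4.36%, 13.3% and 21.5% of all genes were. In the same order, 0, 1 and 2 fell, beside 5.64%, 17.7% and 25.3% of all genes. With 6 genes, these counts are near the shares of all genes. Ifnar1, a chain of the type I receptor, had 8.61, 5.81 and 5.79 FPKM in RD7, 10.9, 11 and 12.4 in R, and 14.3, 16.3 and 10.9 in BM. RD7 was the lowest in every library, and Ifnar1 fell by 0.99 on the log2 scale in RD7 against BM (SE 0.19, adjusted p = 0.0031). Its fall of 0.74 in RD7 against R (SE 0.19, adjusted p = 0.016) was not called without R 3 (adjusted p = 0.062), RD7 2 (0.063) or RD7 3 (0.062). Il10rb, a chain of the type III receptor, differed by -0.41 ± 0.14 in RD7 against BM (adjusted p = 0.039), a call lost in 11 alternatives.

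Jak1, a kinase bound to the receptors, had 27.5, 20.6 and 21.4 FPKM in RD7, 26.6, 27.3 and 32.5 in R, and 38.5, 39.8 and 32.4 in BM. RD7 and R overlapped, and R and BM overlapped, while every RD7 library was below every BM library. It fell by 0.67 on the log2 scale in RD7 against BM (SE 0.15, adjusted p = 0.0069).

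Of 13 genes tested that induce interferon, 0 rose and 1 fell in R against BM, beside 4.36% and 5.64% of all genes. Counts were 2 higher and 3 lower in RD7 against R, beside 13.3% and 17.7%, and 4 higher and 4 lower in RD7 against BM, beside 21.5% and 25.3%. Such counts are near the shares of all genes and moved with single libraries. Those lower in RD7 against R numbered 0 without R 3, beside 10.7% of all genes. They numbered 1 without R 1, R 2, RD7 2 or RD7 3, beside 12.3%, 11.3%, 11.5% and 12.2%. Tlr3, the receptor of double-stranded RNA, had 3.09, 1.95 and 1.98 FPKM in RD7, 2.57, 2.74 and 3.18 in R, and 6.08, 6.20 and 5.39 in BM. It fell by 0.94 in R against BM (SE 0.18, adjusted p = 0.0071) and by 1.19 in RD7 against BM (SE 0.18, adjusted p = 6.8e-04). Tmem173, which encodes STING, the adaptor of the DNA sensor cGAS, had 96.5, 113 and 113 FPKM in RD7, 74.3, 76.3 and 69.8 in R, and 68.1, 58.5 and 67.3 in BM. It rose by 0.54 ± 0.12 in RD7 against R (adjusted p = 0.0084) and by 0.73 ± 0.12 in RD7 against BM (adjusted p = 0.0014). In RD7 against BM the adaptor Traf3 fell by 0.94 (SE 0.21, adjusted p = 0.0067) and the kinase Ikbke by 0.70 (SE 0.17, adjusted p = 0.009); the second was not called with the length trend removed (0.102). Without BM 3, Ikbke was also called lower in RD7 against R (adjusted p = 0.0461).

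Of 12 negative regulators, 2 rose and 0 fell in R against BM, beside 4.36% and 5.64% of all genes. Adding DHT gave 2 higher and 3 lower in RD7 against R, beside 13.3% and 17.7%, and in RD7 against BM 4 rose and 0 fell, beside 21.5% and 25.3%. The genes called in R against BM were Trex1, whose call (adjusted p = 0.0489) was lost in 15 of the 18 alternatives, and Socs3, whose call (adjusted p = 0.038) was lost in 9. Without BM 3, 6 rose in R against BM, beside 13.1% of all genes. Without BM 2, R 1, R 2, R 3 or RD7 3, 0 did, beside 3.15%, 2.31%, 2.38%, 2.93% and 3.63%. None was called either way in RD7 against R without RD7 3, beside 10% of all genes higher and 12.2% lower. There, 0 were higher without R 3 (9.27% of all genes) and 0 lower without R 1 (12.3%). In RD7 against BM 2 rose without BM 1 (15.2% of all genes), BM 2 (14.4%) or RD7 2 (13.9%). Trex1, a nuclease that clears DNA from the cytosol, had 14.2, 16.4 and 19.6 FPKM in RD7, 11.5, 9.75 and 8.41 in R, and 5.76, 5.09 and 7.43 in BM. It formed 3 steps and rose by 1.39 ± 0.18 in RD7 against BM (adjusted p = 3.1e-04). Samhd1, which depletes nucleotides, rose by 0.55 ± 0.15 in RD7 against BM (adjusted p = 0.014). Rnaseh2a, part of the nuclease that removes ribonucleotides from DNA, differed by 0.74 ± 0.21 there (adjusted p = 0.016), a call lost without BM 1 (adjusted p = 0.059), BM 2 (0.061) or RD7 2 (0.066); without BM 3 it was called higher in R against BM (0.0098). Socs1, a feedback inhibitor of JAK kinases, had 2.98, 4.63 and 2.52 FPKM in RD7, 7.91, 6.38 and 6.13 in R, and 2.52, 3.46 and 5.02 in BM. It was highest in R and fell by 0.94 in RD7 against R (SE 0.25, adjusted p = 0.019), which was lost without R 1 (adjusted p = 0.068), RD7 1 (0.0507) or RD7 3 (0.076). Socs1 was not called in R against BM (adjusted p = 0.066), but was without BM 3 (0.013) or RD7 2 (0.0452) and with the length trend removed (0.042).

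Of another 35 interferon-stimulated genes outside the 39, 4 rose and 2 fell in R against BM, beside 4.36% and 5.64% of all genes. With DHT, 10 rose and 3 fell in RD7 against R, beside 13.3% and 17.7%, and in RD7 against BM 14 rose and 4 fell, beside 21.5% and 25.3%. Without BM 3, 10 rose and 2 fell in R against BM, beside 13.1% and 8.23% of all genes. Without R 1, 2 rose and 1 fell there, beside 2.31% and 3.5%. The count of rising genes in RD7 against R was 6 without R 2 (8.79% of all genes rose) or without R 3 (9.27%). Isg20, an exonuclease that degrades viral RNA, had 28.8, 43.8 and 40.1 FPKM in RD7, 6.30, 5.02 and 5.14 in R, and 2.15, 2.00 and 5.18 in BM. Its log2 fold change in RD7 against R was 2.66 ± 0.29 (adjusted p = 9.9e-05). Ifitm1, a relative of Ifitm3, had 112, 176 and 121 FPKM in RD7, 36.7, 21.5 and 27.3 in R, and 14.3, 10.6 and 30.7 in BM, with BM 3 again near R. It rose by 2.24 ± 0.35 in RD7 against R (adjusted p = 9.8e-04). Lgals3bp, a secreted glycoprotein, had 46.4, 46.0 and 60.3 FPKM in RD7, 22.1, 24.3 and 23.3 in R, and 56.6, 49.5 and 53.6 in BM. This is the reverse of Mx1: R was the lowest, with a log2 fold change of -1.18 ± 0.14 in R against BM (adjusted p = 3.2e-04) and 1.11 ± 0.14 in RD7 against R (adjusted p = 2.0e-04). The chemokine Ccl5 had 1.86, 2.29 and 1.79 FPKM in RD7, 0.587, 0.493 and 0.721 in R, and 0, 0.0863 and 0.531 in BM, and rose by 1.17 ± 0.24 in RD7 against R (adjusted p = 0.0051). Isg20, Ifitm1 and Ccl5 were not called in R against BM with all libraries (adjusted p = 0.115, 0.227 and 0.099), but were higher without BM 3 (0.0026, 0.012 and 0.0033).

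Markers of other cells were read beside these results. Of 12 immune cell markers, 3 were tested, and Tyrobp, H2-Aa and Siglech were listed at 0 in all 9 libraries. Their summed level was 5.36 to 6.30 FPKM in RD7, 5.49 to 6.86 in R and 4.32 to 4.52 in BM. Cd68 and Lyz2 were called higher in R against BM and in RD7 against BM, where 4.36% and 21.5% of all genes were. Cd68 in R against BM (adjusted p = 0.03) lost its call in 8 alternatives. Csf1r, the other marker tested, was at 1.76 to 3.01 FPKM in RD7, 2.61 to 3.0 in R and 2.83 to 3.46 in BM. Csf1r was not called, except lower in RD7 against BM without RD7 1 (adjusted p = 0.017). Ptprc, which was not tested, had 2 reads in RD7, 1 in R and 2 in BM. Lyz2 reached 0.5 CPM in 3 RD7, 3 R and 0 BM libraries, so it passed the filter only through the groups where it was high. Cd68 was at 1.65 to 2.83 FPKM in RD7, 2.22 to 3.09 in R and 0.856 to 1.58 in BM, and Lyz2 stood at 0.397 to 1.40 FPKM in RD7, 0.643 to 0.656 in R and was listed at 0 in BM. The 5 endothelial markers summed to 0.196 to 0.349 FPKM in RD7, 0.271 to 0.536 in R and 0.107 to 0.216 in BM. Of 10 mesenchymal markers, 8 were tested. In R against BM 1 rose and 2 fell (4.36% and 5.64% of all genes), in RD7 against R 1 and 5 (13.3% and 17.7%), and in RD7 against BM 1 and 4 (21.5% and 25.3%). The 10 summed to 65.1 to 93.2 FPKM in RD7, 23.3 to 29.4 in R and 16 to 24.7 in BM, most of it Dcn in RD7 and R. Vim was at 0.0118 to 0.110 FPKM in RD7, 0.172 to 0.272 in R and 1.26 to 1.53 in BM. Acta2 was at 0.973 to 1.53 FPKM in RD7, 3.03 to 4.82 in R and 9.67 to 16.3 in BM. The part of such cells in the results was not tested.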

How the data were processed

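Poly-A RNA of organoids was amplified with a Takara SMART-Seq kit, per the labels' protocols. Per the submitters' processing notes, the authors used CASAVA 1.9, STAR 2.6.1a, featureCounts and edgeR 3.24.1 with build GRCm38, and they deposited FPKM values for 49585 genes in each of 9 libraries. Identifiers were matched to GENCODE M21 (99.5%). Reads were read back from FPKM, gene length and the smallest step of each library: 22971 of 26813 genes above 0 gave whole reads with the annotated exon length (tolerance 0.01 reads), 3780 with a fitted length, and 62 were not read back. Library totals were 17893595, 19102843 and 16894535 in RD7, 15961444, 23256008 and 21657601 in R, and 6505859, 24141017 and 19606757 in BM; low genes are less precise in BM 1. The 15917 genes that reached 0.5 CPM in 3 or more libraries entered a fit with limma 3.58.1 in R 4.3.3 on log2(FPKM + 0.5), with 1 mean per group over all 9 libraries, trended and robust empirical Bayes, two-sided, and Benjamini-Hochberg adjustment. The fit was also run on simulated data with 1 spread for all genes and no length trend, unlike these libraries. There it called 100% of the larger planted changes and 69% to 73% of the smaller ones. Of its calls, 6.63% were false in R against BM, 1.16% in RD7 against R and 5.98% in RD7 against BM. The alternatives changed the pseudocount, filter, scaling, test, length trend and replicate block, and left out each library. The members and lists were chosen with earlier results of these data known. Values in every library are given for each member called in a comparison and for the first and last in level of each role; of the other lists, up to 4 called genes with the smallest adjusted p are named. The counts of the JAK and STAT list are not reported here. Promoters are RefSeq windows of GRCm38.p6. SDs in the level plots are over 3 libraries.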

Additional observations from a re-analysis of the deposited data

How the results depend on the processing

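The 18 alternatives were pseudocounts of 0.1 and 1, no filter, a filter at 1 FPKM in 3 libraries (36 members tested), 2 other scalings, limma-voom on the reads read back, removal of the length trend, a replicate block and leaving out each library. No called member changed direction in any of them. In R against BM, 8 of 9 calls held in all, in RD7 against R 10 of 16, and in RD7 against BM 21 of 27. Without single libraries, the members higher ranged from 8 to 16 in R against BM, 8 to 15 in RD7 against R and 21 to 27 in RD7 against BM, and the members lower from 0 to 1, 2 to 4 and 0 to 2 in the same comparisons. The shares of all genes higher in those fits ranged over 2.31% to 13.1%, 8.79% to 16.5% and 13.9% to 25.6%, and the shares lower over 3.49% to 8.23%, 10.7% to 19.5% and 16.4% to 27.9%. The members lower in RD7 against BM numbered 1, against 2, with median-of-ratios scaling, TMM scaling, the length trend removed and the replicate block. Of all genes, 22%, 21.4%, 21.2% and 21.1% were lower in those fits. The call lost is that of Irf1, and the cause was not tested. The median log2 fold change of all genes was farthest from 0 at -0.12 (limma-voom, RD7 against R). Lower depth in BM 1 limits the precision of genes near the filter.

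Deviations of samples with the same number had correlations of both signs: -0.322, 0.075 and -0.52 between R and BM, -0.34, 0.109 and -0.087 between RD7 and R, and 0.271, -0.458 and -0.006 between RD7 and BM. Deviations within a group of 3 sum to 0 and ran with gene length, so these values cannot decide whether the numbers pair the libraries. The labels do not say. With the replicate block, 9 members were higher and 0 lower in R against BM, 12 higher and 3 lower in RD7 against R, and 24 higher and 1 lower in RD7 against BM. In that fit 2.9% of all genes were higher and 4.39% lower in R against BM, 10.9% and 13.5% in RD7 against R, and 18.4% and 21.1% in RD7 against BM. The members' calls lost under it were Ifitm3 in RD7 against R (adjusted p = 0.066), and Irf1 (0.078) and Dhx58 (0.088) in RD7 against BM.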
